A study of Mus musculus with 12 samples.

Results

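Cones see colour and bright light with a phototransduction cascade that parallels the one in rods but is built largely from other genes. A cone opsin absorbs a photon and activates the G protein transducin, transducin releases the catalytic subunit of phosphodiesterase from its inhibitory subunit, and the falling cGMP closes the cyclic nucleotide-gated channel until cone arrestin binds the opsin. The mouse retina is dominated by rods, and many of its cones carry both the short-wavelength and the middle-wavelength opsin. The cone opsins and cone phototransduction genes described here were the 10 genes Opn1sw, Opn1mw, Arr3, Gnat2, Gnb3, Gngt2, Cnga3, Cngb3, Pde6c and Pde6h, taken by gene symbol from a table of 56748 genes. Each symbol was found in 1 row.

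The table holds 12 RNA-seq libraries of mouse retina, 3 in each of 4 groups. RNA on polyribosomes of rods was pulled down with the Rod-TRAP method (called rods here), and the input, total RNA from retina, was sequenced beside it (called retina here). Every mouse carried the RiboTag allele, which puts an HA tag on a ribosomal protein in cells with Cre recombinase, and the i75-Rod-Cre transgene, in which a rod-specific promoter drives Cre. Control mice (labelled WT) had the genotype RiboTag; Pkm2 fl/+; i75-Rod-Cre with 1 floxed allele of Pkm2, and Pkm2-Rodko mice had the genotype RiboTag; Pkm2 fl/fl; i75-Rod-Cre. The deposited description gives the age as 2 weeks, whereas the methods of the study give it in months. Neither the labels nor the methods say how many mice went into a library, so p-values measure the spread between libraries only.

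The libraries held 13458890 to 22790072 reads on genes. Pkm, the targeted gene, had 63740 to 68840 scaled reads in control rods and 27660 to 29850 in Pkm2-Rodko rods, without overlap. These values count Pkm1 and Pkm2 together. All 10 cone genes had at least 10 reads in every library, with means between 206.2 and 5808 reads per library and a lowest value of 79 reads. The reads of 4 Y-linked genes were at 0 in control libraries 1 and 2 of both fractions and between 322 and 1599 in the other 8 libraries, so Y-linked reads also differed between the genotypes. Every library with Y-linked reads also held reads of Xist, with 470 to 782 in Pkm2-Rodko retina against 784 to 952 in control retina. Whether libraries pool mice of both sexes was not tested. Opn1mw and Arr3 lie on the X chromosome, Opn1sw, Gnb3 and Pde6h on chromosome 6, Cnga3 on chromosome 1, Gnat2 on 3, Cngb3 on 4, Gngt2 on 11 and Pde6c on 19 (GENCODE vM21).

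The regions just before the start sites of both cone opsins and of cone arrestin are shown as examples. They are the 250 bases before the RefSeq start site on mouse assembly GRCm38.p6, written 5′ to 3′ along the gene. Capitals mark TAATC, the core letters bound by the photoreceptor homeobox factor CRX, AGGTCA, the half-site of nuclear receptors such as the thyroid hormone receptor, and TATAAA, the TATA box, each searched on both strands. The Opn1sw sequence is at chr6:29380514-29380763 on the minus strand, that of Opn1mw at chrX:74127216-74127465 on the plus strand and that of Arr3 at chrX:100605247-100605496 on the plus strand.
Opn1sw: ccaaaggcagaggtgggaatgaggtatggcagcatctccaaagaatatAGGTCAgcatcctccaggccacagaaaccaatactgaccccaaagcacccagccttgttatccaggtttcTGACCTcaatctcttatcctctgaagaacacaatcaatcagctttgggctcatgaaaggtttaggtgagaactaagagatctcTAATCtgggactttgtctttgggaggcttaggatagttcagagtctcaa
Opn1mw: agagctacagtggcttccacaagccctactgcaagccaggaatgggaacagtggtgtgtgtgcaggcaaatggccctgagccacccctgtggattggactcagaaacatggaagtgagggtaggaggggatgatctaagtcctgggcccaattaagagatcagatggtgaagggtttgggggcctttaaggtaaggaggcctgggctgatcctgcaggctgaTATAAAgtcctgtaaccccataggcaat
Arr3: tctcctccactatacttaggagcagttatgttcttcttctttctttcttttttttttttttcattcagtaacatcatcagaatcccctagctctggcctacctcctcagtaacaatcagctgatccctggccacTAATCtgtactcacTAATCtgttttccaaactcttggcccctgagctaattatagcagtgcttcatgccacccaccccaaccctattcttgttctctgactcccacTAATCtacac

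The Opn1sw sequence held TAATC at -49, counted from the start site, and AGGTCA at -202 and, on the other strand, at -132. The Opn1mw sequence held TATAAA at -28 and neither of the other motifs, and the Arr3 sequence held TAATC at -116, -102 and -10. The set of promoter windows used here covered 6 of the 10 cone genes (Opn1sw, Opn1mw, Arr3, Gnat2, Cnga3 and Pde6h) with 7 windows in all. It held no window for Gnb3, Gngt2, Cngb3 and Pde6c, which does not mean that RefSeq lacks their start sites. TAATC was in 3 of these 7 windows and in 19.8% of all 32851 promoter windows of the same length. AGGTCA was in 1 of 7 and in 14.0% of all windows, and TATAAA in 2 of 7 and in 12.4%. In 6 windows of rod counterparts of the cone genes (named below), TAATC was in 5, AGGTCA in 3 and TATAAA in 2, so the motifs were not particular to the cone genes. These matches are a description of the letters and were not tested for binding.

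Levels between genes were compared per kilobase of exon (reads scaled by TMM, the trimmed mean of M values, which puts both fractions on 1 scale, divided by the length of the joined exons in GENCODE vM21). In control retina Opn1sw, the short-wavelength opsin, had the highest level of the cone genes, at 2737 ± 81.0 scaled reads per kilobase (SD, n = 3). Gnb3, the beta subunit of cone transducin, followed with 1710 ± 311, and Opn1mw, the middle-wavelength opsin, with 1180 ± 41.5. Below the opsins came Arr3, cone arrestin, with 772 ± 72.9 and Gnat2, the alpha subunit of cone transducin, with 677 ± 48.3. The levels of Arr3 and Gnat2 overlapped between libraries, and no other neighbours in this order did.

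The remaining genes of control retina were lower. Gngt2, the gamma subunit of cone transducin, had 425 ± 35.7 scaled reads per kilobase. Pde6c, the catalytic subunit of cone phosphodiesterase, had 345 ± 25.1, and Pde6h, its inhibitory subunit, 228 ± 19.7, a level that depends on a long annotated exon length of 7846 bases. The channel subunits Cngb3 and Cnga3 were lowest, at 67.6 ± 2.90 and 57.3 ± 4.23. In control rods the order was alike from the third place to the eighth. Gnb3 stood first there with 2054 ± 1002 and overlapped Opn1sw at 1694 ± 168, and the channel subunits overlapped each other at 37.8 ± 5.64 for Cnga3 and 32.6 ± 8.41 for Cngb3. In Pkm2-Rodko mice Opn1sw stood first in both fractions, with 1618 ± 61.0 in rods and 2490 ± 31.0 in retina, before Gnb3 with 1161 ± 189 and 1332 ± 68.7.

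**Figure D1:**
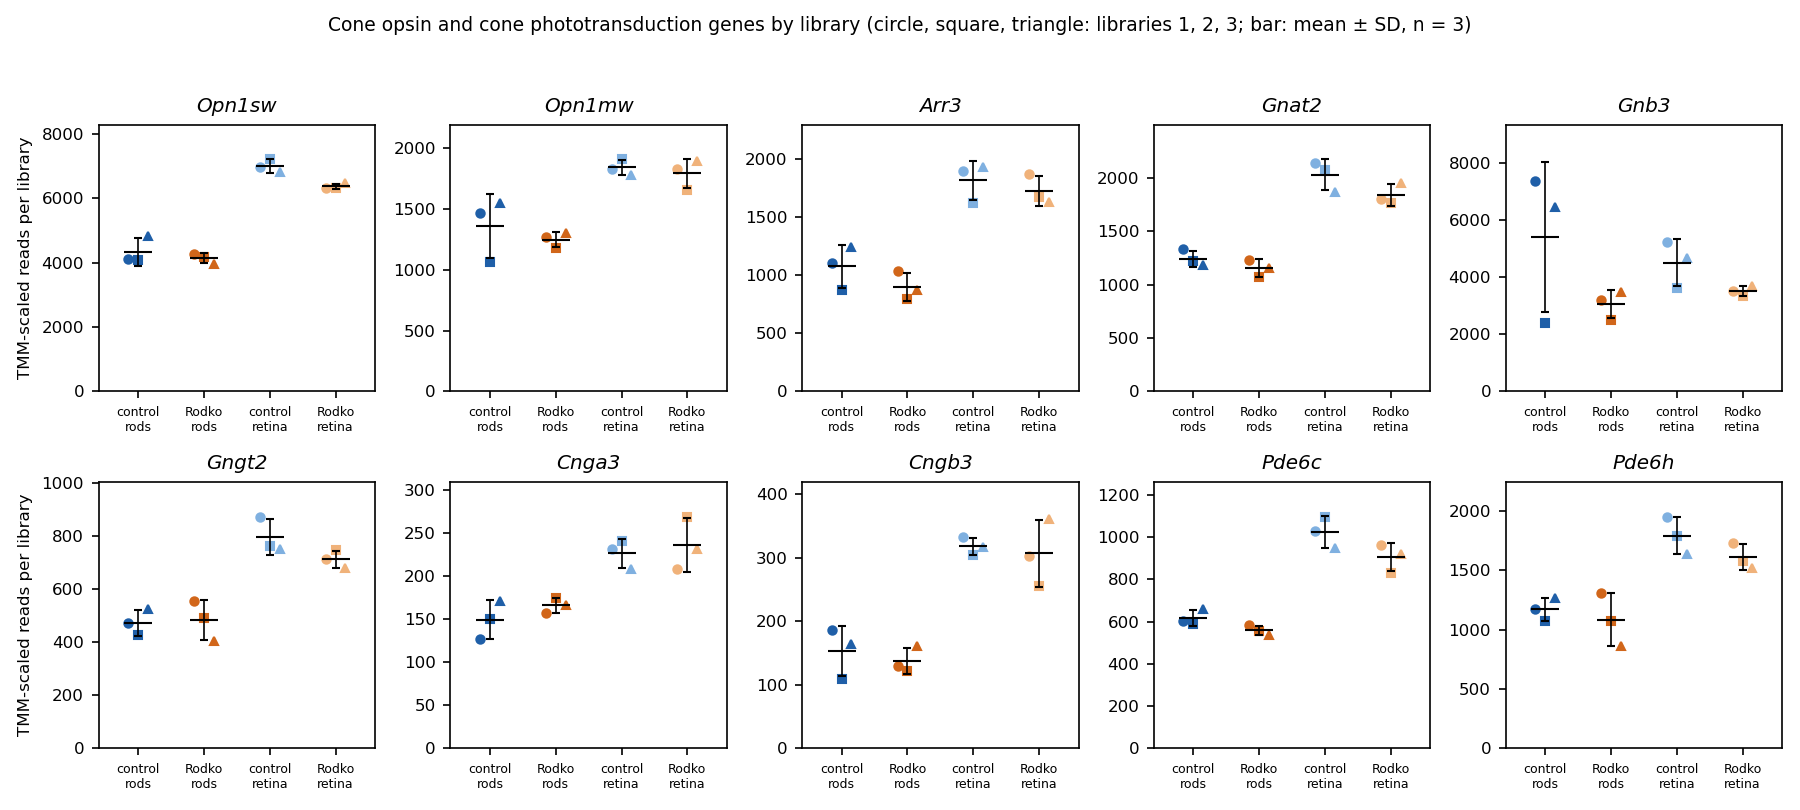
Each panel plots 1 cone gene, with TMM-scaled reads per library from 0 on the y axis and the 4 groups on the x axis. Points are single libraries and bars are the mean ± SD of 3 libraries. In 9 of the 10 panels every rod library lies below every retina library of the same genotype, and Gnb3 is the exception. The share of all genes that do so was not counted.

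Rod-TRAP and retina were compared to see how far the cone genes were depleted in RNA from rod polyribosomes. Of the 10 cone genes, 9 were lower in rods than in retina in control mice, and the same 9 were lower in Pkm2-Rodko mice. Gnb3 passed the test in neither genotype. Standard errors, intervals and limma p-values between fractions take rod and retina libraries as independent. Of all 25478 genes tested, 35.7% were lower in rods in control mice and 35.3% in Pkm2-Rodko mice (59.2% and 59.3% passed in either direction). How many of all genes had no overlap between the libraries of the fractions was not counted, so non-overlap of single cone genes has no background here. The median difference of the cone genes was -0.70 on the log2 scale in control mice and -0.61 in Pkm2-Rodko mice, against -0.37 and -0.32 over all genes tested. Over genes with at least 10 reads in every library, which all 10 cone genes had, the median of all genes was 0.24 and 0.26.

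The opsins are the light sensors of the cascade. Opn1sw had 4100, 4069 and 4829 TMM-scaled reads in control rods 1, 2 and 3 and 6969, 7220 and 6809 in control retina. In Pkm2-Rodko mice it had 4273, 4169 and 3966 in rods and 6326, 6315 and 6458 in retina. All rod libraries were below all retina libraries, with a difference of -0.70 ± 0.07 in control mice (log2, SE, adjusted p = 7.67e-07, limma) and -0.62 ± 0.07 in Pkm2-Rodko mice (adjusted p = 2.38e-06, limma). Of the exonic bases of Opn1sw, 15.5% lie opposite exons of Calu, and whether the counting used strand is not given in the sources used here.

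Opn1mw had 1470, 1062 and 1547 TMM-scaled reads in control rods and 1833, 1912 and 1784 in control retina. It had 1268, 1180 and 1301 in Pkm2-Rodko rods and 1827, 1657 and 1893 in Pkm2-Rodko retina. The fractions did not overlap, and the difference was -0.46 ± 0.11 in control mice (log2, SE, adjusted p = 0.00273, limma) and -0.52 ± 0.11 in Pkm2-Rodko mice. Among the 9 genes this was the smallest difference in control mice, and its 95% interval of -0.70 to -0.21 overlapped those of other cone genes.

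Transducin couples the opsin to phosphodiesterase. Gnat2 had 1329, 1217 and 1186 TMM-scaled reads in control rods against 2141, 2077 and 1865 in control retina. In Pkm2-Rodko mice it had 1234, 1073 and 1156 in rods against 1802, 1765 and 1956 in retina. The alpha subunit was lower in every rod library, with a difference of -0.70 ± 0.08 in control mice and -0.67 ± 0.08 in Pkm2-Rodko mice (log2, SE). Gngt2 had 471, 427 and 525 in control rods, 874, 765 and 752 in control retina, 557, 492 and 406 in Pkm2-Rodko rods and 713, 747 and 681 in Pkm2-Rodko retina. The gamma subunit differed by -0.75 ± 0.12 and -0.57 ± 0.12. Of its exonic bases, 12.5% lie opposite exons of Abi3, a gene with a mean of 15.2 reads per library.

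Gnb3, the beta subunit, passed between fractions in neither genotype. It had 7367, 2408 and 6440 TMM-scaled reads in control rods 1, 2 and 3 and 5223, 3610 and 4666 in control retina. In Pkm2-Rodko mice it had 3203, 2500 and 3464 in rods and 3509, 3325 and 3687 in retina. Control libraries 1 and 3 were therefore above control library 2 in both fractions, 3.06- and 2.67-fold in rods and 1.45- and 1.29-fold in retina. The difference between fractions was 0.13 ± 0.29 in control mice (log2, SE, adjusted p = 0.725, limma) and -0.21 ± 0.29 in Pkm2-Rodko mice (adjusted p = 0.553, limma), with 95% intervals of -0.49 to 0.74 and -0.83 to 0.40.

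The Gnb3 value in control mice rested on single libraries. Without control rods 2 it was 0.61 (adjusted p = 0.00261, limma), so that Gnb3 would be higher in rods, and without control rods 1 it was -0.16. Its coefficient of variation in control rods was 48.8%, whereas those of the other 9 cone genes ranged from 6.04 to 25.8%. The 13 genes within 100 kb of Gnb3 with a mean of at least 30 reads had control rods 1 at 0.82- to 1.76-fold of control rods 2 (median 1.09) and control rods 3 at 0.84- to 1.82-fold (median 1.23), with 9 of the 13 above 1 in each case. Gnb3 is also used by ON bipolar cells. The summed level of 11 bipolar markers ranged from 6115 to 7469 in control rods and from 21280 to 22510 in control retina, and none of the 11 was at 0. Prkca alone made up 70.5% of that sum in control rods and was at 96.0% of its retina level. Without it the other 10 markers ranged from 1781 to 2127 in control rods and from 15610 to 18270 in control retina. Prkca had 4334, 5342 and 4517 TMM-scaled reads in control rods 1, 2 and 3. With or without Prkca, the sum was lowest in control rods 1 and highest in control rods 2, where Gnb3 was lowest. The part of bipolar RNA in the Gnb3 values was not tested.

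Phosphodiesterase is held by its inhibitory subunit until transducin acts. Pde6c had 601, 590 and 662 TMM-scaled reads in control rods against 1029, 1096 and 947 in control retina, and 582, 556 and 538 in Pkm2-Rodko rods against 964, 832 and 918 in Pkm2-Rodko retina. Pde6h had 1172, 1076 and 1264 in control rods against 1948, 1790 and 1638 in control retina, and 1311, 1074 and 864 in Pkm2-Rodko rods against 1731, 1576 and 1519 in Pkm2-Rodko retina. Neither gene overlapped between fractions. The differences of Pde6c were -0.73 ± 0.09 and -0.69 ± 0.09 in control and Pkm2-Rodko mice, and those of Pde6h were -0.61 ± 0.12 and -0.59 ± 0.12 (log2, SE).

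The cone channel is built from Cnga3, its ion-conducting subunit, and Cngb3, its modulatory subunit. Cnga3 had 127, 150 and 171 TMM-scaled reads in control rods against 231, 241 and 208 in control retina, and 157, 174 and 167 in Pkm2-Rodko rods against 208, 269 and 231 in Pkm2-Rodko retina. Cngb3 had 186, 109 and 165 in control rods against 332, 305 and 317 in control retina, and 130, 122 and 162 in Pkm2-Rodko rods against 304, 256 and 362 in Pkm2-Rodko retina. Both subunits were lower in every rod library. Cngb3 had the largest difference of the cone genes, -1.08 ± 0.18 in control mice and -1.15 ± 0.18 in Pkm2-Rodko mice, and Cnga3 differed by -0.61 ± 0.14 and -0.50 ± 0.14.

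Arr3, which ends the response of the cone opsins, had 1109, 878 and 1244 TMM-scaled reads in control rods against 1900, 1622 and 1934 in control retina. In Pkm2-Rodko mice it had 1037, 798 and 873 in rods against 1871, 1680 and 1631 in retina. The fractions did not overlap, and the log2 difference of Arr3 was -0.77 ± 0.13 in control mice and -0.94 ± 0.13 in Pkm2-Rodko mice. Over the 9 genes other than Gnb3, adjusted p-values (limma) ranged from 7.67e-07 to 0.00273 in control mice and from 2.38e-06 to 0.00663 in Pkm2-Rodko mice.

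The size of these differences depended on how both fractions were put on 1 scale. Scaling by total reads moved the median over all genes from -0.37 to -0.76 in control mice and that of the cone genes from -0.70 to -1.25. Relative to the median of all genes, the median of the cone genes was -0.33 with TMM and -0.49 with total reads in control mice, and -0.29 and -0.45 in Pkm2-Rodko mice. It was -0.94 and -0.87 in control and Pkm2-Rodko mice with a minimum of 10 reads in every library and -0.15 and -0.16 with a pseudocount of 0.1. The filter and the pseudocount are not scalings, and they left the median of the cone genes itself at -0.70 and -0.61. What moved was the median of all genes, in control mice to 0.24 with the filter and -0.55 with the pseudocount. The 9 genes stayed lower under both scalings, while the value of Gnb3 in control mice turned to -0.42 with total reads.

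**Figure D2:**
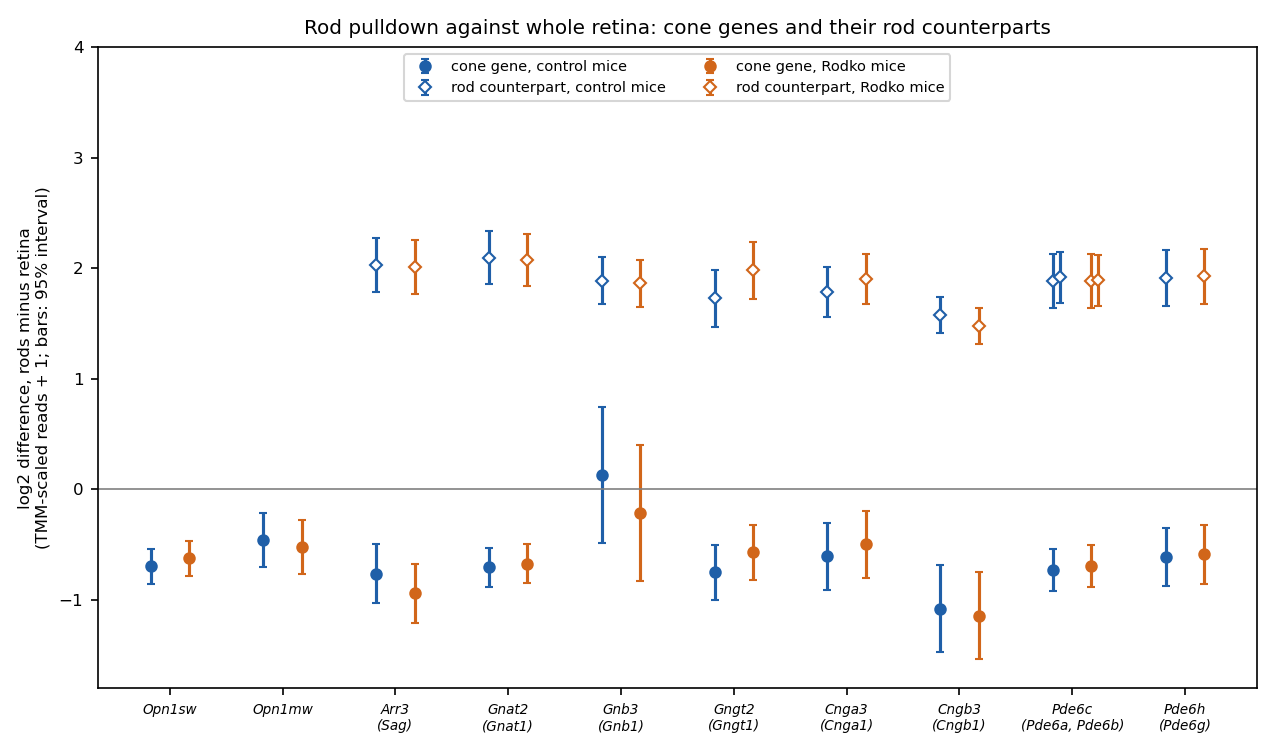
The y axis gives the log2 difference of TMM-scaled reads between rods and retina for each cone gene (filled circles) and its rod counterpart (open diamonds, named in brackets on the x axis, for 8 of the 10 cone genes), in control (blue) and Pkm2-Rodko (orange) mice. Bars are 95% intervals. All rod counterparts shown lie above 0, and all cone genes but Gnb3 have intervals below 0.

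A ratio of a cone gene to its rod counterpart within 1 library does not depend on scaling between libraries. The 9 rod counterparts (Sag, Gnat1, Gnb1, Gngt1, Cnga1, Cngb1, Pde6a, Pde6b and Pde6g) were all higher in rods than in retina in both genotypes, with a median difference of 1.89 in control mice and 1.90 in Pkm2-Rodko mice. Arr3 per kilobase was 1.69 ± 0.0996% of Sag, rod arrestin, in control rods and 11.7 ± 0.880% in control retina (SD, n = 3), a 6.95-fold lower ratio in rods. Gnat2 was 0.238 ± 0.0181% of Gnat1, the alpha subunit of rod transducin, in control rods and 1.66 ± 0.104% in control retina. Over the 8 cone and rod pairs without Gnb3, the ratio was 5.25- to 6.96-fold lower in rods in control mice and 5.28- to 7.73-fold lower in Pkm2-Rodko mice. The libraries of the fractions did not overlap in any of these pairs. A rod pulldown enriches rod genes by design, so these ratios combine the rise of the rod gene with the fall of the cone gene. They do not measure depletion of the cone genes alone, and non-overlap of such ratios was not counted for other genes.

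Gnb3 was 2.84 ± 1.36% of Gnb1 in control rods and 8.83 ± 1.90% in control retina, a 3.39-fold lower ratio. In Pkm2-Rodko mice it was 1.56 ± 0.292% and 6.52 ± 0.528%, a 4.21-fold lower ratio. The ratios of Gnb3 to Gnb1 did not overlap between fractions in either genotype. Gnb1 itself was at 369% and 363% of its retina level in control and Pkm2-Rodko rods, and Gnb3 at 120% and 87.1%. The summed level of the 10 cone genes ranged from 11990 to 18030 TMM-scaled reads in control rods, 12140 to 13750 in Pkm2-Rodko rods, 20640 to 22480 in control retina and 18420 to 19330 in Pkm2-Rodko retina. Its mean was 74.9% of that of retina in control rods and 68.0% in Pkm2-Rodko rods, and without Gnb3 it was 62.8% and 63.7%. For the marker lists of other retinal cells these shares in control and Pkm2-Rodko mice were 30.4 and 31.5% for 11 bipolar genes (11.6 and 9.28% without Prkca), 14.8 and 13.1% for 6 Mueller glia genes, 16.4 and 13.1% for 7 amacrine genes, 11.1 and 9.23% for 6 ganglion cell genes, 11.9 and 9.43% for 4 horizontal cell genes and 19.0 and 14.9% for 4 pigment epithelium genes. In the last 2 lists, 1 gene each was at 0 in a rod library. Whether RNA of cones came with the pulldown or is made in rods was not tested.

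The other genes of the cascade were read beside the cone genes. Of 13 such genes, which cones share with rods or which belong to one of them, 12 were higher in rods in both genotypes, from Rgs9bp, the membrane anchor of the transducin-deactivating complex, at 0.71 in control mice to Pdc, phosducin, at 1.99. Slc24a2, a sodium, calcium and potassium exchanger, was lower, with log2 differences of -2.35 in control mice and -2.43 in Pkm2-Rodko mice. Of 18 regulators of opsin choice and of thyroid hormone supply, 9 were higher and 9 lower in rods in both genotypes. Nrl, the factor that sets rod fate, was higher by 2.00 in control mice, and Thrb, the thyroid hormone receptor gene, by 0.64. Rxrg, a retinoid receptor of cones, was lower at -1.67, and Crym, a thyroid hormone binding protein, at -3.82.

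Control (Pkm2 fl/+) and Pkm2-Rodko (Pkm2 fl/fl) mice, both with Cre, were compared within each fraction to see whether the cone genes differed. The comparison is thus of heterozygous with homozygous deletion in rods, and no group had intact Pkm2. None of the 10 cone genes passed the test in rods or in retina with limma, edgeR or DESeq2. In rods 0.0194% of the 20658 genes tested passed, and 0.00391% of 25590 in retina. At an unadjusted p under 0.05 there was 1 cone gene in each fraction, Gnb3, against 4.77% of all genes in rods and 4.18% in retina. These values are on the log2 scale of the authors' own scaling within a fraction. The median difference of the cone genes was -0.11 in rods, with 8 of 10 below 0, and -0.12 in retina, with 9 of 10 below 0. Over all genes the median was 0.01 in rods and -0.0045 in retina, with 48.9% and 51% of genes below 0. Signs of genes measured in the same libraries are not independent of each other. Markers of other retinal cells were also mostly below 0 in rods, with medians of -0.35 for Mueller glia (6 of 6 below 0), -0.51 for amacrine cells (6 of 7), -0.43 for ganglion cells (6 of 6) and -0.11 for horizontal cells (2 of 4), and 0.09 for pigment epithelium (2 of 4). In retina these medians were -0.16, -0.05, -0.03, -0.07 and 0.48, and no marker passed the test in either fraction. The pigment epithelium genes were uneven between control libraries. Ttr had 386 TMM-scaled reads in control retina 2 against 2101 and 2040 in control retina 1 and 3, and Rpe65 and Rgr were also lowest in control retina 2. The part of other retinal cells in the values of the cone genes was not tested. In bulk RNA, fewer cone cells and less RNA per cone cannot be told apart.

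Gnb3 differed most between genotypes. The difference was -0.67 ± 0.30 in rods (log2, SE, adjusted p = 0.932, limma) and -0.33 ± 0.11 in retina (adjusted p = 0.947, limma). In rods it was -1.17 without control rods 2 (adjusted p = 0.0588, limma), -0.47 without control rods 3 and -0.37 without control rods 1. In retina it ranged from -0.48 without control retina 2 to -0.22 without control retina 1, and it passed in none of these fits. The genotypes overlapped in both fractions through control library 2, which was below all Pkm2-Rodko libraries in rods and within their range in retina. The 11 bipolar markers had a median genotype difference of -0.42 in rods and -0.24 in retina, with 10 and 11 of them below 0 and none past the test. Their summed level ranged from 5452 to 7126 in Pkm2-Rodko rods and from 16620 to 21380 in Pkm2-Rodko retina, and overlapped that of control libraries in both fractions. Only without Prkca, left out after its values were seen, did the sum lie below every control rod library, at 1320 to 1441 in Pkm2-Rodko rods. In Pkm2-Rodko retina it then ranged from 12760 to 16340 and overlapped control retina. How often such sums separate was not counted, and the part of bipolar RNA in the genotype difference of Gnb3 was not tested.

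The opsins differed little. Opn1sw differed by -0.05 ± 0.09 in rods, with a 95% interval of -0.24 to 0.14, and by -0.12 ± 0.07 in retina, with an interval of -0.26 to 0.02. Opn1mw differed by -0.10 ± 0.13 in rods (-0.37 to 0.18) and by -0.03 ± 0.08 in retina (-0.19 to 0.14). Every Pkm2-Rodko retina library was below every control retina library for Opn1sw, and the genotypes overlapped in the other 3 cases.

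Of the other members, Pde6c was lower in every Pkm2-Rodko rod library than in any control rod library (-0.14 ± 0.11), and Gngt2 was lower in every Pkm2-Rodko retina library (-0.14 ± 0.09). Non-overlapping libraries were thus seen for 1 of 10 cone genes in rods and 2 of 10 in retina, against 9.89% and 9.29% of all genes, so these counts lie near the background. Arr3 differed by -0.24 ± 0.13 in rods and -0.06 ± 0.09 in retina, and Cnga3 by 0.17 ± 0.17 and 0.07 ± 0.13. Leaving Gnb3 aside, the differences ran from -0.24 to 0.17 in rods and from -0.16 to 0.07 in retina. The 95% intervals of these 9 genes together reached from -0.58 to 0.53 in rods and from -0.35 to 0.34 in retina.

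**Figure D3:**
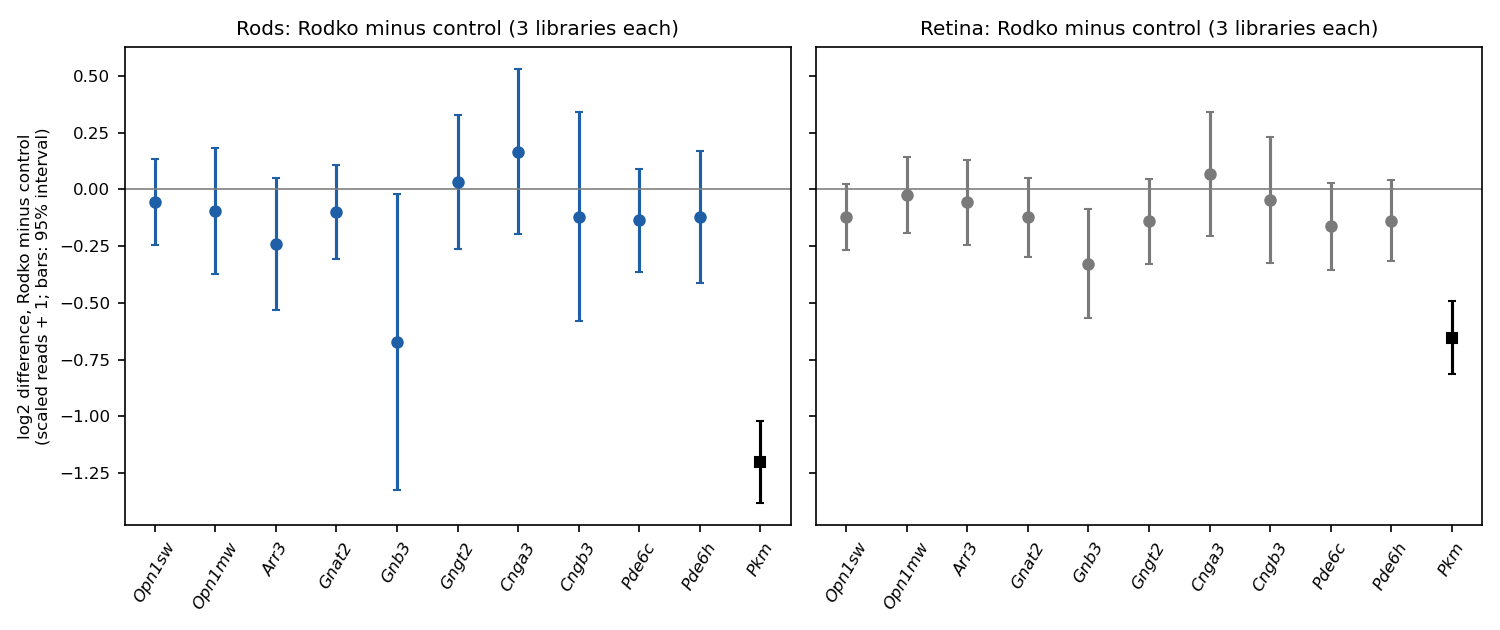
The y axis gives the log2 difference between Pkm2-Rodko and control libraries for each cone gene and, as a black square, for the targeted gene Pkm, in rods (left) and retina (right), with 95% intervals. Apart from Gnb3, at -0.67 in rods and -0.33 in retina, the interval of every cone gene includes 0, and Pkm lies at -1.20 and -0.65.

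The genotype effect in rods was also set against that in retina in 1 fit of all 12 libraries. The difference of the effects passed the test for 0 of the 10 cone genes and for 0% of all 25478 genes tested, and at an unadjusted p under 0.05 there were 0 cone genes and 1128 genes in all. The values ran from -0.34 ± 0.41 for Gnb3 to 0.18 ± 0.17 for Gngt2 (log2, SE). With 1 library left out they ranged from -0.83 to -0.050 for Gnb3 and from 0.058 to 0.31 for Gngt2. Adjusted p-values (limma) lay between 0.978 and 0.998. With edgeR's quasi-likelihood test on the recovered reads, 0 of all genes and no cone gene passed.

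The balance of the opsins was compared as reads of Opn1sw per read of Opn1mw, a ratio within a library. It was 2.79, 3.83 and 3.12 in control rods and 3.37, 3.53 and 3.05 in Pkm2-Rodko rods. In retina it was 3.80, 3.78 and 3.82 in control mice and 3.46, 3.81 and 3.41 in Pkm2-Rodko mice. Control retina was the most uniform, at 3.80 ± 0.0209 (SD, n = 3), and the control rod libraries were the most spread, at 3.25 ± 0.532. All 4 comparisons, between genotypes in rods and in retina and between fractions in each genotype, overlapped. Two-sided exact permutation tests gave p = 0.9 and 0.3 for genotype in rods and retina and p = 0.4 for the fractions in each genotype, with 0.1 the smallest p possible. In the pairs of rods and retina with the same number, the ratio was lower in rods in 3 of 3 Pkm2-Rodko library pairs. The exact paired test gave p = 0.25, the smallest possible with 3 pairs. In control libraries the ratio was lower in rods in 2 of 3 pairs (exact paired p = 0.5). Adjusted over the 4 unpaired tests the exact p-values were 0.9, 0.533, 0.533 and 0.533.

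**Figure D4:**
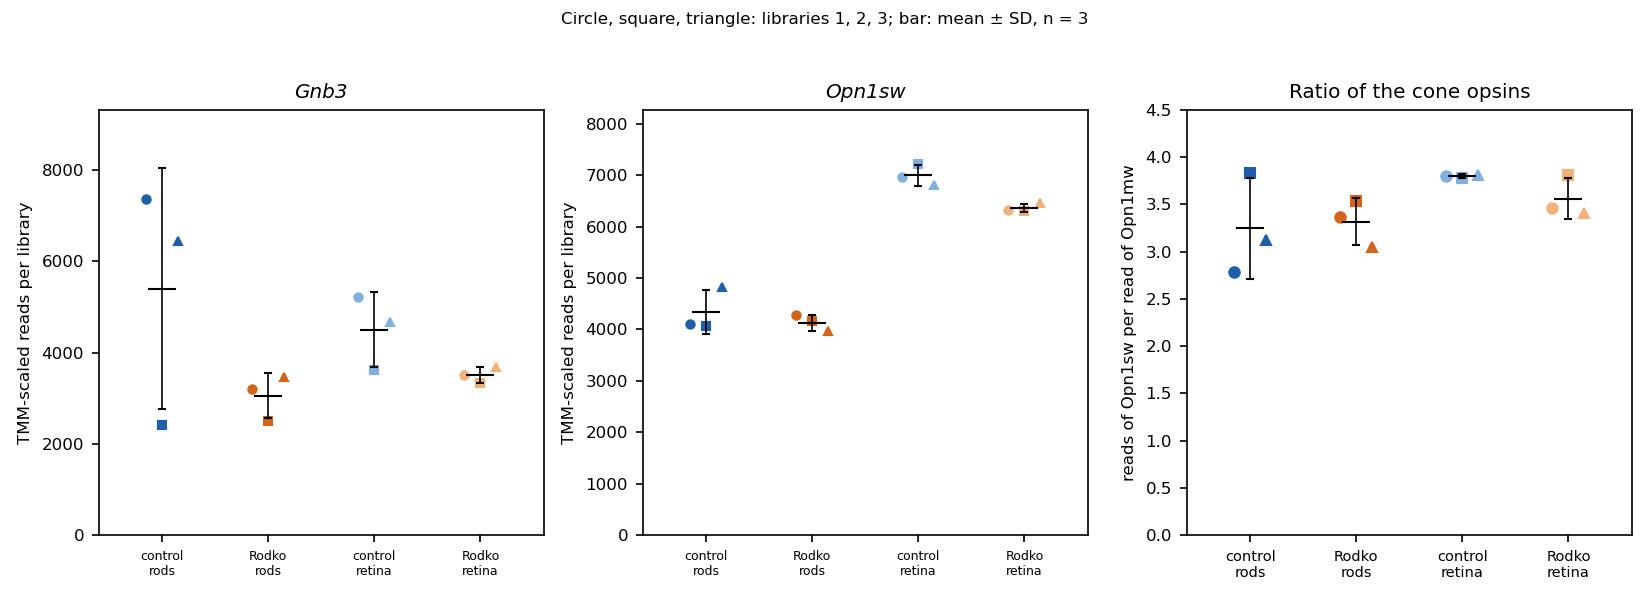
The left and middle panels plot TMM-scaled reads per library of Gnb3 and Opn1sw, and the right panel the reads of Opn1sw per read of Opn1mw, by group with mean ± SD of 3 libraries. Control rods 1 and 3 stand at 7367 and 6440 for Gnb3 while control rods 2 stands at 2408, and the opsin ratios of the 4 groups overlap.

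Correlations over the 12 libraries describe how alike the cone genes varied, with the libraries, their depth and the step between fractions shared by all points. Against the mean of the other 9, Pearson's r was 0.923 to 0.972 for 8 cone genes, 0.769 for Cnga3 and 0.223 for Gnb3. Of 11264 genes with a mean of at least 100 reads, the profiles nearest to the mean of the cone genes were those of Snap47 (r = 0.993), Akap7 (0.987), Tmem130 (0.987), BC055402 (0.985) and Scamp3 (0.983). After the group means were taken out, the r of a cone gene against the other 9 lay between -0.08 for Cnga3 and 0.775 for Opn1mw, and that of Gnb3 was 0.637.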

How the data were processed

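RNA-seq libraries of rod polyribosomal RNA (Rod-TRAP) and of retina were compared, 3 per group, with groups taken from the sample titles. The authors deposited a signal per gene, which is the reads on a gene divided by a size factor within each fraction. The submitters' processing notes name CASAVA 1.8.2, HISAT2, DESeq2, edgeR and the build GRCm39. Their roles, the annotation and the use of strand are not given in the sources used here.

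Reads were recovered from the smallest step in each library, and 99.9945% of positive values were whole within 0.1 read. The 10 members and all gene lists were chosen with earlier results of these data known. Genotypes were compared within a fraction by limma 3.58.1 (R 4.3.3) with a variance trend on log2(value + 1), over genes with a mean of at least 1 in 1 genotype. Fractions, and the genotype effects of both, were compared in 1 limma fit of 12 libraries on reads scaled by TMM. P-values were adjusted by Benjamini-Hochberg over all genes at 0.05. Alternatives were edgeR 4.0.16, DESeq2 1.42.0, a pseudocount of 0.1, other filters and scalings, a replicate block and each library left out. The functions were tested on simulated data. Named genes were all members, their rod counterparts, other cascade genes and regulators with selected values, and the 5 genes of most similar profile. Sums without Gnb3 or Prkca were chosen after their values were seen.

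Rod and retina libraries of the same number deviated together within each genotype (correlations 0.290 to 0.599), so these numbers pair them. Except with the replicate block, the fits between fractions and of the difference of effects did not use this pairing. Reads were recovered in Python 3.11.15 (pandas 2.3.3, numpy 2.4.6) and figures drawn by matplotlib 3.10.9. Exon lengths came from GENCODE vM21 (GRCm38) by gene identifier. One item of the design is not reported here.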

Additional observations from a re-analysis of the deposited data

How the results depend on the processing

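With 3 libraries per group, small differences were not detectable. Under the alternatives run, the 9 cone genes stayed lower in rods than in retina in both genotypes, and no cone gene passed between genotypes. The median difference of the cone genes between rods and retina moved to -1.25 (control) and -1.19 (Pkm2-Rodko) with total reads and to -0.68 (Pkm2-Rodko) with RLE scaling, and over fits without 1 library it ranged from -0.72 to -0.56 in Pkm2-Rodko mice. With total reads Gnb3 passed in Pkm2-Rodko mice at -0.80 (adjusted p = 0.0227, limma). In control mice 0 to 1 cone genes were higher in rods when 1 library was left out, and Gnb3 ranged from -0.16 to 0.61. With a replicate block, 9 cone genes were lower in rods in each genotype, and the pairing changed no call of a cone gene. Between genotypes the numbers do not pair, and the replicate block gave 8 called genes in rods and 0 in retina, none a cone gene. All-gene counts in rods were 18 in 1 fit of 12 libraries and 2 to 6 without 1 library, and in retina 0 to 4. A minimum of 10 reads left 9526 and 9651 genes called between fractions in control and Pkm2-Rodko mice, with fewer genes tested, and 0 between genotypes in retina.

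Some values under the threshold changed sign, and the cause was not tested. With total reads these were Gngt2 in rods (-0.00024), Gnb3 between fractions in control mice (-0.42), and the difference of effects for Gnat2 (-0.0039) and Pde6h (-0.0096). Without 1 library the genotype difference in rods ranged from -0.34 to 0.038 for Cngb3, -0.067 to 0.15 for Gngt2, -0.094 to 0.021 for Opn1sw, -0.26 to 0.0020 for Opn1mw and -0.26 to 0.029 for Pde6h. In retina it ranged from -0.074 to 0.033 for Opn1mw, -0.027 to 0.16 for Cnga3 and -0.18 to 0.079 for Cngb3. The difference of effects ranged from -0.021 to 0.21 for Cnga3, -0.27 to 0.077 for Cngb3, -0.14 to 0.19 for Pde6h, -0.22 to 0.040 for Opn1mw, -0.037 to 0.092 for Gnat2 and -0.024 to 0.089 for Pde6c.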

Other observations

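After the group means were taken out, the 5 genes whose profile over the 12 libraries was nearest to that of Gnb3, chosen after its values were seen, were Cd47 (r = 0.979), Syngr3 (0.978), Nln (0.976), Rprd1a (0.974) and Spidr (0.970), of 11264 genes searched. The genes nearest to the mean of the cone genes on the same measure were 2700062C07Rik (0.957), Taldo1 (0.957), Ing1 (0.949), Eef2-ps2 (0.947) and Rrp1 (0.937). These correlations describe the libraries and carry no test.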
